A study of Sus scrofa with 4 samples.

Results

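Pig duct cells cultured in a gel of basement membrane extract grow into epithelial bodies, the porcine pancreatic ductal organoids (PPDO), and the cells described here were the 2432 PPDO cells with the highest summed expression of IGFBP6, PTGS2, PDPN, CAV1, LOXL2 and CORIN, out of 16222 PPDO cells and 26154 cells kept in all 4 libraries. They were chosen by a score on measured values, the mean over these 6 genes of ln(1 + UMIs per 10000), and the highest 15% of each PPDO library were kept, which gave 1332 of 8885 cells in PPDO 1 and 1100 of 7337 in PPDO 2. UMIs, or unique molecular identifiers, tag each RNA molecule once, so they count molecules and not reads. The 2 PPDO libraries were compared with 2 libraries of primary pig pancreas, all made by droplet single-cell RNA sequencing of the 3' ends of transcripts. Per the study, the 2 organoid lines came from pigs of different postnatal age and were taken at different passages, and the sample labels do not say which line is which. Both were cultured in basement membrane extract with WNT3A, R-spondin, noggin, EGF, FGF10, prostaglandin E2, an inhibitor of TGF-beta receptors (A83-01) and the small molecule Y-27632, so no untreated organoid was available. The primary pancreata came from a wild-type and an INS-eGFP pig of the same age, and were prepared on different days, 1 enriched for hand-picked ducts and 1 partly by sorting on a duct lectin and on the insulin reporter. The labels do not say which of them is primary pancreas 1. The eGFP reporter was found in 1973 barcodes of primary pancreas 2 (10361 UMIs) and in 79 of primary pancreas 1 (164 UMIs). Primary pancreas 2 was therefore taken as the INS-eGFP pig and primary pancreas 1 as the pig with hand-picked ducts. Line, passage and animal cannot be told apart within a group, and culture and group cannot be told apart between the groups.

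Basal cells of stratified and pseudostratified epithelia sit on the basement membrane, where hemidesmosomes, which contain collagen XVII and the integrin alpha 6 beta 4, tie their keratin filaments to laminin 332. They carry the transcription factor p63 and keratin 5, and their daughters lose these contacts and turn on cornification genes such as involucrin as they move away from the membrane. The healthy pancreatic duct is a single-layered epithelium that lacks such a basal layer, although the study cites reports of rare duct cells with basal features. Caveolae are flask-shaped membrane pits built from caveolins and cavins that buffer membrane tension, and transcripts such as CCN1 and CCN2 are common readouts of the co-activators YAP and TAZ, which respond to stretch and matrix stiffness.

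The score genes have different known roles. IGFBP6 is a secreted protein that binds insulin-like growth factors with a preference for IGF2, and its gene lies on chromosome 5 from 18352884 to 18357225 in the Sscrofa11.1 assembly. PTGS2, the inducible cyclooxygenase that starts prostaglandin synthesis, lies on chromosome 9 from 127850164 to 127858866. PDPN, a mucin-type membrane glycoprotein best known from lymphatic endothelium and from motile epithelial cells, lies on chromosome 6 from 73019063 to 73050000. CAV1, the main structural protein of caveolae, lies on chromosome 18 from 29648120 to 29682451. LOXL2, a secreted lysyl oxidase that crosslinks collagen, lies on chromosome 14 from 7435861 to 7540699. CORIN, a membrane serine protease known for activating atrial natriuretic peptide, lies on chromosome 8 from 37530812 to 37811226. These spans are whole genes from the RefSeq annotation.

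Levels below are UMIs per 1000000 UMIs (CPM), summed over the cells of a class within a library, so each library gives a single value. Because the score genes chose the cells, their levels are a description without a test. IGFBP6 stood at 209.7 CPM in the score-high cells and 32.4 CPM in the other cells of PPDO 1, and at 699 against 101 CPM in PPDO 2. PTGS2 stood at 145 against 25.9 CPM in PPDO 1 and at 194 against 38.0 CPM in PPDO 2. PDPN stood at 56.3 against 10.4 CPM and at 77.5 against 15.1 CPM. These 3 genes were higher in the score-high than in the other cells of both libraries, as the choice fixes, and all 3 were higher in PPDO 2 than in PPDO 1. CAV1 stood at 71.8 against 17.2 CPM in PPDO 1 and at 183 against 42.9 CPM in PPDO 2, and LOXL2 at 19.6 against 5.27 CPM and at 48.2 against 10.4 CPM. CORIN differed between the libraries, with 369 against 41.7 CPM in PPDO 1 but only 2.34 against 1.72 CPM in PPDO 2.

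**Figure D1:**
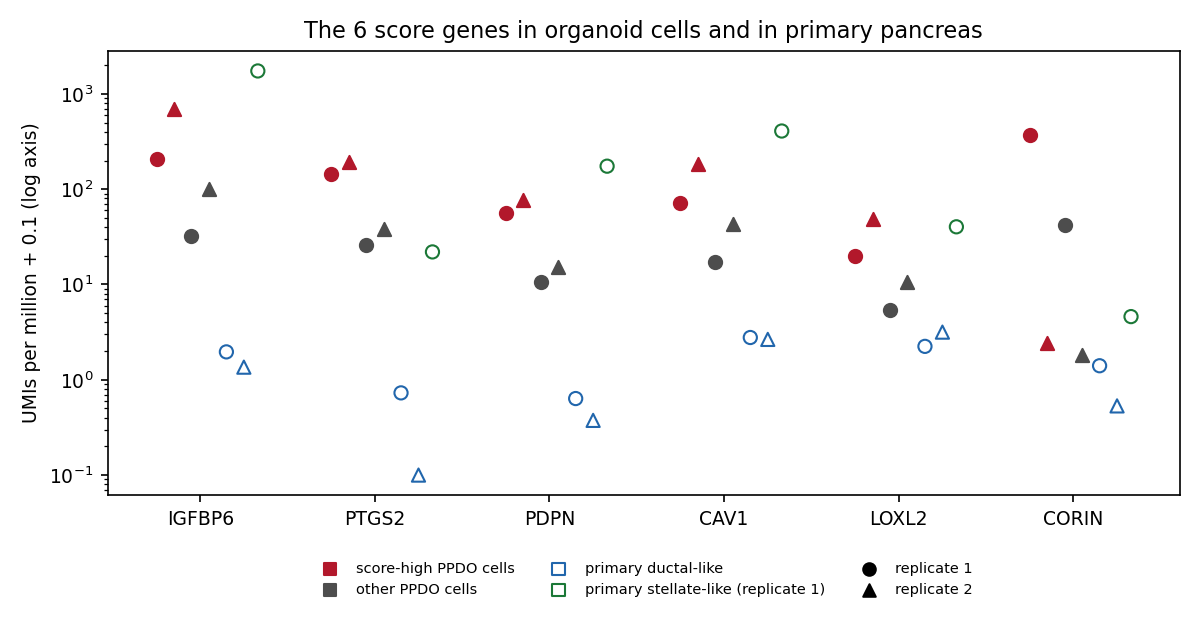
Level of each score gene, as CPM plus 0.1 on a log axis, in the score-high and the other PPDO cells and in ductal-like and stellate-like primary cells. Circles are replicate 1 and triangles replicate 2, each a sum over the cells of 1 library; stellate-like cells are shown for primary pancreas 1 only. CORIN reached 369 CPM in the score-high cells of PPDO 1 and 2.34 CPM in those of PPDO 2, and the primary ductal-like cells held at most 3.06 CPM of each gene.

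The score therefore rested on 6 genes in PPDO 1 and in effect on 5 in PPDO 2. CORIN made up 31.4% of the summed score of the score-high cells in PPDO 1 and 0.45% in PPDO 2, where IGFBP6 made up 43.1%. With CORIN left out of the score, 927 of the 1332 cells of PPDO 1 (69.6%) and 1082 of the 1100 of PPDO 2 (98.4%) were still chosen. The 405 cells of PPDO 1 that CORIN alone brought in held 766 CPM of CORIN, but 62.8 CPM of IGFBP6, 21.5 CPM of PDPN and 21.0 CPM of CAV1, closer to the other cells than to the 927, which held 274, 71.4 and 93.9 CPM of these genes. High CORIN and lower levels of the other score genes than in the 927 follow from how the 405 were chosen. These levels are therefore only a description. The S100A12 level of the 405, at 268 CPM, lay between the 59.2 CPM of the 927 and the 913 CPM of the other cells. With CORIN left out of the score, 37 genes were higher and 69 lower in the comparison of organoid cells below, in place of 38 and 47, of which 31 and 45 were shared.

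The score had no gap at its threshold. In PPDO 1 the lowest score inside and the highest outside were both 0.401, and in PPDO 2 both were 0.539, with 728 and 506 cells within 0.05 of the threshold. The median score was 0.530 in the score-high and 0.109 in the other cells of PPDO 1, and 0.664 and 0.169 in PPDO 2. A class chosen this way is a range of a continuous score and not a separate cell type. After each cell was thinned to 10000 UMIs, which left out 52 and 16 score-high cells that were shallower, 47.3% of the score-high cells of PPDO 1 and 63.7% of those of PPDO 2 still had 3 or more of the 6 genes, against 3.73% and 7.77% of the other cells. IGFBP6 was found in 61.2% and 90.04% of the thinned score-high cells and in 19.9% and 38.1% of the thinned others. Before thinning those shares were 81.0% and 97.2% against 37.1% and 57.8%.

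The 6 genes went together only loosely from cell to cell. The highest Pearson correlation over cells within a library was that of PDPN with CAV1, 0.35 in PPDO 1 and 0.40 in PPDO 2, and no other pair passed 0.24 in either library. These are descriptions over 8885 and 7337 cells that share a library and sparse counts. Each gene was also looked at in cells chosen by the other 5. PDPN then stood at 37.0 against 14.0 CPM in PPDO 1 and at 55.1 against 18.8 CPM in PPDO 2, and LOXL2 at 14.3 against 6.23 CPM and at 31.3 against 13.2 CPM. IGFBP6 stood at 99.99 against 52.2 CPM and at 348 against 156 CPM. The ratios for the 5 genes other than CORIN ran from 1.72 to 2.93, well under the 3.72 to 6.95 seen when the gene itself took part in the choice, and the ratio for CORIN was 1.67 in PPDO 1 and 0.93 in PPDO 2.

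The score-high cells were close to the other organoid cells in depth and quality. Their median depth was 33530 UMIs against 34263 in PPDO 1 and 31783 against 34889 in PPDO 2, and their median mitochondrial share was 0.393% against 0.398% and 0.355% against 0.396%. Without the reporter genes, the libraries held 366263504 UMIs in 9853 barcodes and 316018482 UMIs in 8071 barcodes. The 2 PPDO libraries shared 23 barcodes and none among the score-high cells. The doublet caller set a threshold that marked 0 of the PPDO cells, so it did not work here and no doublets were removed, and 19 and 10 score-high cells had a doublet score over 0.25.

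Genes other than the 6 were then compared between the score-high and the other PPDO cells, to see what the chosen cells share beyond the rule. The cells and the contrast are those of the rule, so ratios are given without a test, and a gene was counted only when its ratio on the log2(CPM + 5) scale passed 1.5-fold in the same direction in both libraries. Of 6158 genes with at least 20 CPM in the higher class of both libraries, 38 were higher (0.617%) and 47 were lower (0.763%). The log2 ratios of the 2 libraries had a Pearson correlation of 0.84 across these genes, which are not independent replicates. In PPDO 2 alone 109 genes were higher and 170 lower, and in PPDO 1 alone 58 and 66. Over all 6158 genes 1612 had ratios above 1 in both libraries and 2866 below 1 in both, the background for the list counts that follow. Only the higher class had to reach 20 CPM, so a gene could enter through 1 class and be counted in 1 direction only. Of the higher genes named below, CCN2, MYLK, STAC2, SCHIP1 and DLK2 stood under 20 CPM in the other cells of both libraries. CAV2 and CCN1 did so in PPDO 1.

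**Figure D2:**
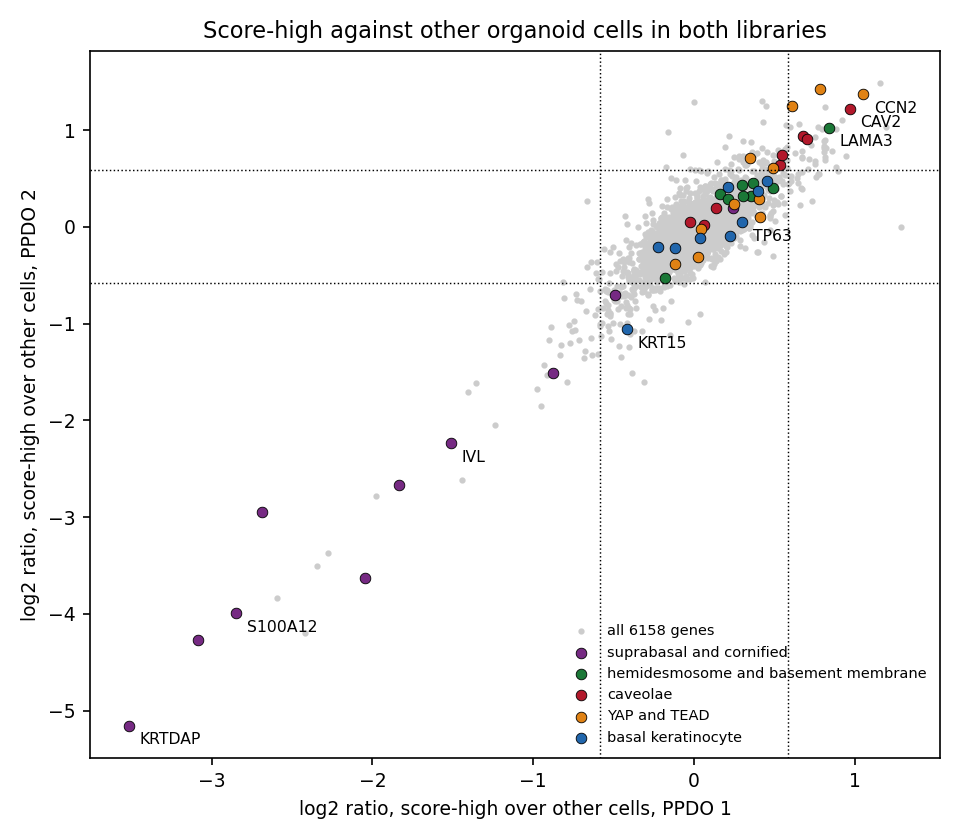
Log2 ratio of score-high over other cells on the log2(CPM + 5) scale in PPDO 1 (x) and PPDO 2 (y) for 6158 genes without the score genes, with 5 gene lists in colour and dotted lines at 1.5-fold. Cornification genes extend to the lower left, down to KRTDAP at -3.51 and -5.15, CAV2 and CCN2 lie at the upper right, and TP63 and most other basal keratinocyte markers lie between the dotted lines.

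The label under which these cells are known calls them basal, and basal markers were checked first. TP63, which encodes p63, stood at 660.4 CPM in the score-high and 535 CPM in the other cells of PPDO 1, and at 604 against 585 CPM in PPDO 2. KRT5, the keratin that marks basal cells, stood at 4749.9 against 5540.4 CPM and at 6735 against 7780.1 CPM. KRT15, a keratin of basal and bulge cells, stood at 880.3 against 1175 CPM and at 741 against 1545 CPM. Basal markers were thus present in both classes of organoid cells and did not set the score-high cells apart, and KRT15 was lower in them in both libraries. Of 9 measured basal keratinocyte markers 0 passed 1.5-fold in either direction, with list medians of 0.21 and -0.09 on the log2 scale against -0.02 and -0.06 for all genes. The cells are therefore called score-high PPDO cells here.

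Among genes of basement membrane attachment 1 passed 1.5-fold. LAMA3, the alpha chain of laminin 332, stood at 340.3 against 188 CPM in PPDO 1 and at 446 against 217 CPM in PPDO 2. COL17A1, the transmembrane collagen of hemidesmosomes, stood at 856 against 662 CPM and at 874 against 636 CPM. ITGB4, the integrin beta 4 chain of hemidesmosomes, which was counted in the basal keratinocyte list above, stood at 412 against 299 CPM and at 441 against 316 CPM. LAMA3 was the single one of 9 measured hemidesmosome and basement membrane genes to pass 1.5-fold, while 8 of the 9 had ratios above 1 in both libraries, against 1612 of 6158 over all genes. The list medians were 0.30 and 0.33 on the log2 scale. The exception was LAMB1, a laminin chain that laminin 332 does not contain, at 25.2 against 29.2 CPM and at 14.0 against 22.4 CPM. LAMA3 and COL17A1 were also the genes whose levels followed the score most closely over cells, with mean Pearson correlations over the 2 libraries of 0.36 each, followed by SLC25A35, a mitochondrial carrier (0.34), CAV2 (0.33) and FRMD4B (0.33).

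Of 8 measured caveolar genes beside CAV1, 3 were higher, against 38 of 6158 over all genes. CAV2, the partner caveolin of CAV1, stood at 26.4 against 11.0 CPM in PPDO 1 and at 60.2 against 23.0 CPM in PPDO 2. CAVIN1, the cavin that all caveolae need, stood at 56.87 against 32.995 CPM and at 67.8 against 33.8 CPM. EHD2, an ATPase at the caveolar neck, stood at 52.0 against 30.6 CPM and at 84.2 against 41.5 CPM. None of the 8 was lower, with list medians of 0.54 and 0.69 on the log2 scale. CAVIN2 (log2 ratios 0.54 and 0.64) and CAVIN3 (0.55 and 0.74) were near the limit, and EHD1, PACSIN2 and PACSIN3 lay between -0.02 and 0.19.

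Of the YAP and TEAD list, 3 of 11 measured genes passed 1.5-fold. CCN2, a matricellular protein, stood at 24.9 against 9.41 CPM in PPDO 1 and at 42.5 against 13.4 CPM in PPDO 2. CCN1 stood at 35.01 against 18.2 CPM and at 66.2 against 21.5 CPM, and F3, the receptor that starts blood clotting, at 50.7 against 31.5 CPM and at 69.2 against 26.1 CPM. The regulators in the list did not pass 1.5-fold. YAP1 stood at 172 against 169 CPM and at 144 against 179 CPM, and WWTR1, which encodes TAZ, at 155 against 168 CPM and at 123 against 162 CPM. TEAD1, a DNA-binding partner of both, stood at 400.3 against 336 CPM and at 369 against 312 CPM.

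Other genes among the 15 with the largest ratios had various roles. MYLK, the kinase of the myosin light chain, stood at 30.7 against 10.6 CPM in PPDO 1 and at 29.4 against 11.9 CPM in PPDO 2. COL12A1, a fibril-associated collagen, stood at 91.3 against 49.6 CPM and at 93.3 against 47.8 CPM, and P3H2, a prolyl hydroxylase of basement membrane collagen, at 292 against 163 CPM and at 371 against 208 CPM. SEMA3C, a secreted semaphorin, stood at 311 against 179.6 CPM and at 422 against 204 CPM, and ANO1, a calcium-activated chloride channel, at 127 against 67.5 CPM and at 114 against 64.2 CPM. SLC25A35, STAC2, FRMD4B, SCHIP1 and DLK2 were also among the 15, with log2 ratios from 0.80 to 1.11. The wider actin and focal adhesion list had 0 of 20 genes past 1.5-fold, though 17 had ratios above 1 in both libraries, against 1612 of 6158 over all genes.

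Of 6 measured genes of the mesenchymal transition list 1 was higher and 1 lower, while cells high for the whole list were more frequent among the score-high cells, at 19.0% against 14.3% in PPDO 1 and 17.7% against 14.5% in PPDO 2, by the per-cell count explained below. The lower gene was VIM, the intermediate filament of mesenchymal cells, at 19.5 against 36.9 CPM in PPDO 1 and at 9.86 against 25.1 CPM in PPDO 2. Fibroblast and stellate markers were at or near 0. Of 10 stellate markers 9 lay under 1 CPM in the score-high cells, COL1A1 among them at 0.109 and 0.136 CPM, and the list summed to 17.1 and 23.0 CPM against 12.4 and 16.0 CPM in the other cells, nearly all of it THY1. Of 12 immune markers 9, of 10 endothelial markers 6, of 12 acinar markers 10 and of 15 endocrine markers 12 lay under 1 CPM. Of 5 lymphatic markers, which bear on PDPN, 4 lay under 1 CPM. The smooth muscle and myoepithelial list summed to 59.3 against 36.3 CPM and to 49.7 against 32.0 CPM, with MYLK as its largest part and 3 of its 8 markers under 1 CPM. Of 7 Schwann markers 5 lay under 1 CPM, and of 4 mesothelial markers 3, where the exception was BNC1, a transcription factor also known from basal keratinocytes, at 57.6 against 40.3 CPM and at 61.0 against 42.7 CPM.

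Other enzymes of prostaglandin synthesis were partly higher. PLA2G4A, the phospholipase that frees arachidonic acid for PTGS2, stood at 65.4 against 33.1 CPM in PPDO 1 and at 58.1 against 36.0 CPM in PPDO 2. PTGES, the inducible prostaglandin E synthase, stood at 291 against 226 CPM and at 393 against 227 CPM, short of 1.5-fold in PPDO 1. PLA2G4A was the single one of 5 measured genes to pass in both. Of 3 measured collagen-modifying genes P4HA2, a prolyl 4-hydroxylase subunit, passed, at 119 against 74.99 CPM and at 155 against 88.9 CPM. NRG1, a ligand of the receptors ERBB3 and ERBB4, was the single one of 8 genes of the EGF receptor family list to pass, at 1272 against 752 CPM and at 1237 against 773 CPM.

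The lower side was led by cornification. KRTDAP, a secreted keratinocyte differentiation protein, stood at 31.2 against 409 CPM in PPDO 1 and at 22.9 against 988 CPM in PPDO 2. S100A12, a calcium-binding alarmin, stood at 123 against 913 CPM and at 120.2 against 1983 CPM, and IVL, which encodes involucrin, at 13.2 against 46.9 CPM and at 20.3 against 114 CPM. Of 10 measured suprabasal and cornified genes 8 were at least 1.5-fold lower in both libraries, against 47 of 6158 over all genes, with list medians of -1.94 and -2.81 on the log2 scale. KLK7, SPRP, DMKN and LYPD3 in both libraries and IVL in PPDO 1 reached 20 CPM in the other cells alone. These genes could be counted only as lower. GRHL3, a transcription factor of barrier formation, was lower by less (log2 ratios -0.49 and -0.70), and SCEL, a cornified envelope precursor, was not lower (0.24 and 0.19). SLPI, KRT23 and CRABP2, of the epithelial antiprotease, keratin and retinoid-binding families, had log2 ratios from -2.28 to -3.84. SPRP, a proline-rich protein gene, had ratios of -3.09 and -4.27, and DMKN, KLK7, TCN1, GPNMB, ELF5 and TMEM154 lay between -0.98 and -3.62. CDKN2B, an inhibitor of the cell cycle known as a TGF-beta target, stood at 18.7 against 40.3 CPM and at 13.4 against 44.4 CPM. SLPI, KRT23, CRABP2 and GPNMB in PPDO 2, and TCN1, ELF5 and CDKN2B in both libraries, reached 20 CPM in the other cells alone. They too could be counted only as lower. S100A8, S100A12, the keratins and MT1A belong to families of similar genes, and how reads shared between copies were counted is not given in the sources used here.

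The lower levels came mostly from the bottom of the score. In the lowest 25% of cells by score KRTDAP stood at 1088 CPM in PPDO 1 and at 2988 CPM in PPDO 2, and S100A12 at 2379.9 and 5754 CPM. In the cells just below the chosen ones, ranked 15 to 30%, KRTDAP stood at 55.7 and 53.2 CPM and S100A12 at 186 and 198 CPM. The cells just below the threshold were therefore already low in cornification genes, and the step from them to the score-high cells was smaller than the step to the lowest cells. With cells in the highest 15% for the cornified list left out of both classes, a choice that by its construction removes much of the lower side, 15 genes were lower in place of 47 and 28 were higher in place of 38, of which 11 and 26 were shared with the full comparison. KRT15 and LGR6, an R-spondin receptor of the WNT pathway in epithelial stem cells, did not rise steadily with the score. LGR6 stood at 42.3 CPM in the lowest band, 91.9 CPM in the middle band and 70.4 CPM in the score-high cells of PPDO 1, and at 43.1, 107 and 72.0 CPM in PPDO 2.

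**Figure D3:**
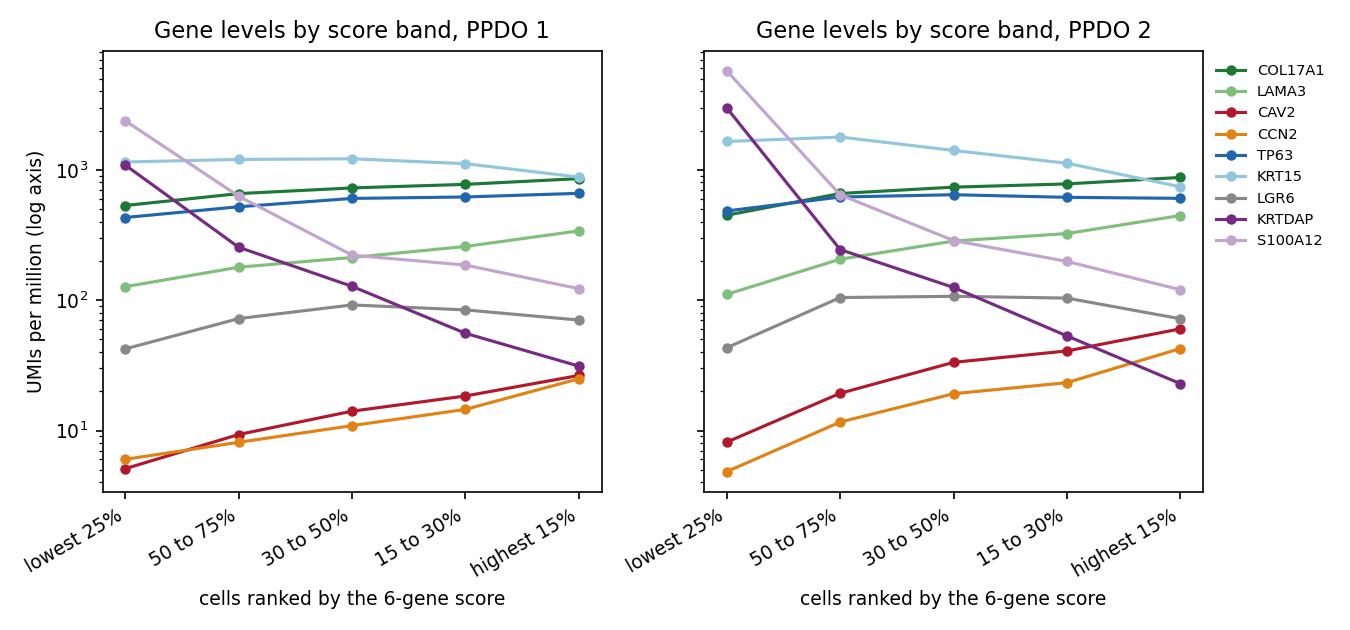
CPM on a log axis for 9 genes in cells ranked by the score, from the lowest 25% to the highest 15%, in PPDO 1 (left) and PPDO 2 (right); each point is a sum over the cells of a band. LAMA3, COL17A1, CAV2 and CCN2 are highest in the highest band, KRTDAP and S100A12 drop most between the lowest band and the next, and TP63 in PPDO 2 moves little outside the lowest band.

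Of the cell cycle genes measured, 4 of 4 of G2 and mitosis and 4 of 5 of S phase had ratios below 1 in both libraries, against 2866 of 6158 over all genes, mostly short of 1.5-fold. TOP2A, the topoisomerase of mitotic chromosomes, stood at 14.0 against 23.6 CPM in PPDO 1 and at 17.0 against 39.8 CPM in PPDO 2 and was the single one of 4 measured genes of G2 and mitosis to pass 1.5-fold, while CENPF, a kinetochore protein, stood at 17.4 against 24.5 CPM and at 14.4 against 36.9 CPM. TOP2A and CENPF in both libraries, and MCM6 of the S phase list in PPDO 1, reached 20 CPM in the other cells alone. These genes could be counted only as lower, so their part in the counts below 1 is fixed by the filter. KIF20B and NUSAP1, the other measured genes of G2 and mitosis, reached 20 CPM in both classes. Their log2 ratios were -0.16 and -0.32, and -0.15 and -0.15. Of 5 measured S phase genes 0 passed in either direction. Cells high for the S phase list made up 12.3% of the score-high cells against 15.5% of the others in PPDO 1 and 12.6% against 15.4% in PPDO 2 after thinning, with intervals that overlapped in PPDO 2, and 12.6% against 15.4% and 11.0% against 15.7% without thinning, where they did not. For G2 and mitosis the shares were 14.8% against 15.04% and 11.3% against 15.6% after thinning, and 12.5% against 15.4% and 10.5% against 15.8% without it. The WNT list (12 genes), the NOTCH list (6 genes), the AP-1 list (5 genes), the IGF axis (9 genes) and the duct list (9 genes) also had 0 genes past 1.5-fold in both libraries.

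Overlap with other gene lists was then counted per cell, after thinning to 10000 UMIs, as the share of cells in the highest 15% for a list without the score genes. For the caveolae list 29.5% of 1280 thinned score-high cells in PPDO 1 (exact binomial 95% interval 27.04 to 32.1%) and 35.3% of 1084 in PPDO 2 (32.5 to 38.3%) were in that range, against 12.4% and 11.4% of the other cells. For hemidesmosome and basement membrane the shares were 28.8% and 28.6% against 12.5% and 12.6%. For the suprabasal and cornified list they were 5.63% and 1.94% against 16.7% and 17.3%. Of 19 lists, 9 had intervals above those of the other cells in both libraries, 2 (cornified and duct) had intervals below them in both, and 8 did neither, basal keratinocyte among them with 16.6% and 13.2% against 14.7% and 15.3%. The duct intervals overlapped those of the other cells in both libraries without thinning, at 12.9% against 15.4% and 12.8% against 15.4%, and in PPDO 2 with the highest 10% of cells. The intervals cover counting error only and the cells of a library are not replicates, so the shares are given as a description.

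**Figure D4:**
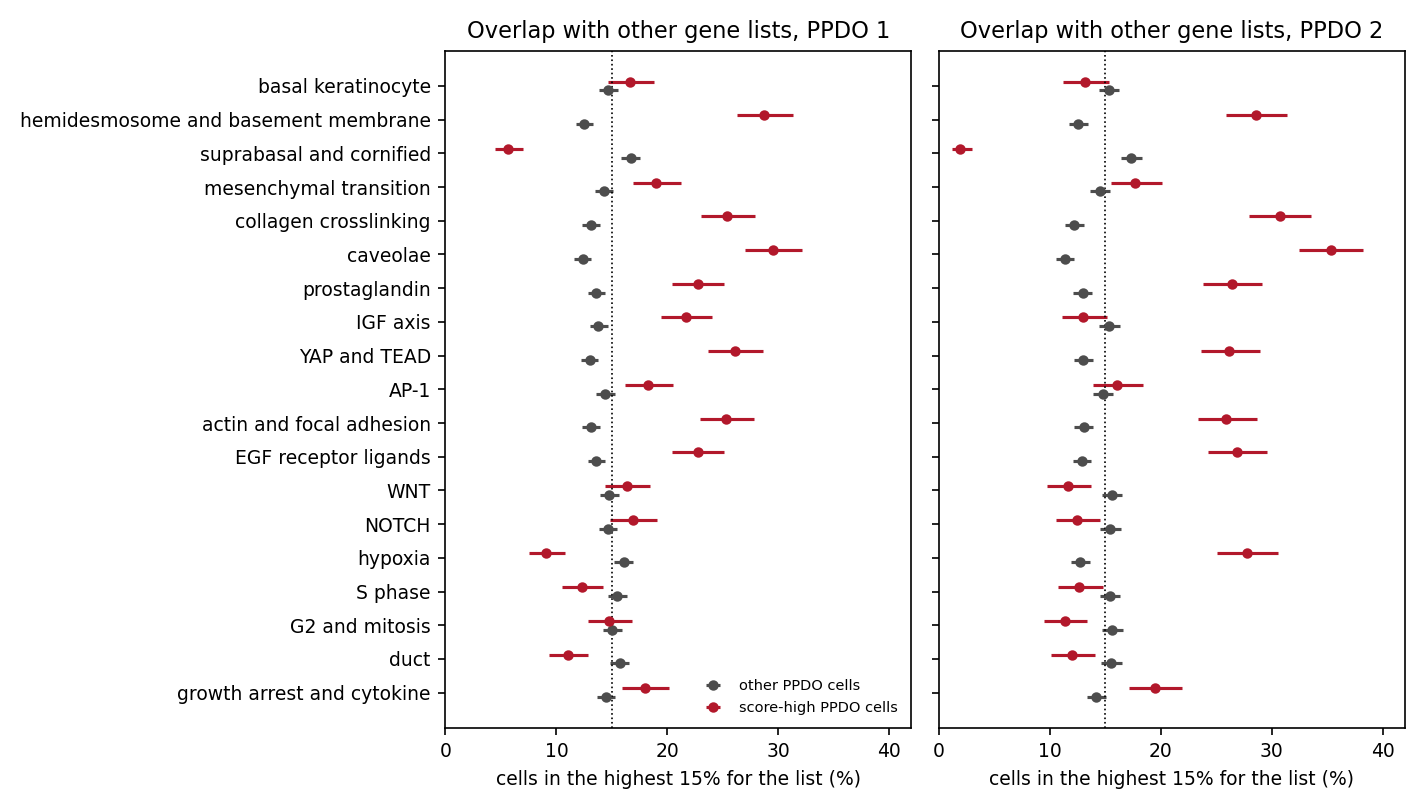
Share of cells (%) in the highest 15% for each of 19 gene lists, after thinning to 10000 UMIs, for score-high and other cells of PPDO 1 (left) and PPDO 2 (right), with exact binomial 95% intervals and a dotted line at 15%. Caveolae, at 29.5% and 35.3%, and hemidesmosome genes, at 28.8% and 28.6%, stand to the right in both libraries, the cornified list to the left, and hypoxia on opposite sides of the line.

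The share of cells high for the hypoxia list went opposite ways in the 2 libraries, while most of its gene levels went the same way. In PPDO 1 9.06% of the score-high cells were in the highest 15% for the hypoxia list against 16.1% of the others, and in PPDO 2 27.8% against 12.7%. ADM, the vasodilator peptide adrenomedullin, was an exception among the genes, at 143 against 160.2 CPM in PPDO 1 and at 287 against 143 CPM in PPDO 2. ENO1, a glycolytic enzyme, stood at 2519 against 2032 CPM and at 3350.1 against 2098 CPM. Of 19 measured hypoxia genes 0 passed 1.5-fold in both libraries and 16 had ratios above 1 in both, against 1612 of 6158 over all genes, with medians of 0.13 in PPDO 1 and 0.45 in PPDO 2. With CORIN left out of the score the shares of the score-high cells were 9.17% and 27.9%. There was a single line on each side of this difference, so it was not tested.

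The score genes were next looked up in the primary pancreas, which had no part in the choice of cells. Primary cells were clustered and named from marker lists, giving 2209 and 1210 ductal-like cells. These ductal-like cells held at most 3.06 CPM of every score gene, with IGFBP6 at 1.86 and 1.26 CPM, CAV1 at 2.68 and 2.55 CPM and PDPN at 0.536 and 0.275 CPM. After thinning, 0 of 1712 and 0 of 1138 ductal-like cells had 3 or more of the 6 genes, which allows shares of up to 0.175% and 0.264% at 3 counts of the total, and of up to 0.215% and 0.324% by the exact binomial 95% interval used for the other shares. Cells with the combination were found mostly in the stellate-like class of primary pancreas 1, where 69 of 127 thinned cells (54.3%, 45.3 to 63.2%) had 3 or more, 68 of them without counting CORIN. That class of 314 cells stood at 1741 CPM of IGFBP6, 408 CPM of CAV1, 174 CPM of PDPN and 40.2 CPM of LOXL2, with PTGS2 at 21.9 CPM and CORIN at 4.50 CPM. Endothelial-like cells had 16 of 461 (3.47%) and 5 of 128 (3.91%), or 11 and 2 without counting CORIN. CAV1 stood in them at 804 and 731.5 CPM and IGFBP6 at 99.6 and 143 CPM. In primary pancreas 1 smooth muscle-like cells had 4 of 130 (3.08%) and Schwann-like cells 3 of 103 (2.91%), the same counts without CORIN. IGFBP6, CAV1 and PDPN were thus higher in stellate-like than in score-high PPDO cells and PTGS2 lower, while 9 of the 10 stellate markers were under 1 CPM in the score-high PPDO cells. Before thinning, 2.22% and 2.56% of ductal-like cells had an IGFBP6 UMI, at median depths of 17591 and 20450 UMIs. Free RNA was not removed from these counts, and its part in these shares was not tested.

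The score-high cells were then tested against the primary ductal-like cells, to ask how they differ from duct cells that were not cultured, in sums per library by the quasi-likelihood test of edgeR with Benjamini-Hochberg adjustment. Of 19734 genes tested without the score genes, 4510 were higher (22.9%) and 4618 were lower (23.4%) in the score-high cells, at an adjusted p under 0.05. These shares are the background for the list counts against duct below. Each arm had 2 libraries, and p-values measure only the spread between these samples. An exact permutation test of a single value over these 4 libraries cannot go below p = 0.333. With PPDO 1 left out 4637 genes were called in all and with PPDO 2 left out 4360, against 9128 with both. In such fits the PPDO arm is 1 library, the spread comes from the 2 primary libraries, and the lone library is assumed to vary like them. In primary pancreas 1 the ductal-like class came largely from a cluster with 1223 of its cells and 12 cells of primary pancreas 2. FOS stood at 2039 CPM in ductal-like cells from primary pancreas 1 and 181 CPM in those from primary pancreas 2, and the score-high cells at 594 and 555 CPM lay between, and without primary pancreas 1 its log2 difference turned from -0.66 to 2.17. Of 9 tested AP-1 genes 0 were called higher and 1 lower.

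Basal markers were mostly higher. Of 11 tested basal keratinocyte markers 9 rose and 1 fell against primary ductal-like cells, with a list median of 7.78 on the log2 scale against -0.03 for all genes. TP63 stood at 660.4 and 604 CPM against 0.256 and 0.511 CPM (log2 difference 11.14 ± 0.34 SE, adjusted p = 2.2e-04). KRT5 stood at 4749.9 and 6735 CPM against 0.326 and 0.275 CPM (14.57 ± 0.48 SE, adjusted p = 2.4e-04). The exception was BCAM, a laminin receptor, at 21.5 and 19.0 CPM against 63.3 and 90.6 CPM (-1.51 ± 0.17 SE, adjusted p = 0.0027), and EGFR did not differ beyond its error. Of 19 suprabasal and cornified genes 16 were higher and 0 lower, although 8 of 10 measured were lower in the score-high than in the other PPDO cells. Free RNA was not removed from the counts, the other PPDO cells held far more of these transcripts, and the part of free RNA in the score-high levels was not tested. KRTDAP, for example, stood at 31.2 and 22.9 CPM in the score-high cells, at 409 and 988 CPM in the other PPDO cells and at 0.0931 and 0.157 CPM in ductal-like cells (8.16 ± 0.33 SE, adjusted p = 2.6e-04).

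Basement membrane genes moved in both directions. Of 13 tested genes 6 rose and 5 fell, against 22.9% and 23.4% over all genes. COL17A1 stood at 856 and 874 CPM against 3.75 and 2.91 CPM (8.39 ± 0.33 SE, adjusted p = 2.5e-04). Of the laminin chains, LAMA3 was higher by 3.33 ± 0.95 SE (adjusted p = 0.040) and LAMB3 by 2.90 ± 0.20 SE (adjusted p = 8.1e-04). LAMA3 differed between the primary libraries, at 83.2 and 13.6 CPM, and its log2 difference was 3.58 without PPDO 1 and 3.08 without PPDO 2 (edgeR adjusted p = 0.11 and 0.14). Those that fell included COL4A1, the main collagen of basement membranes, at 0.979 and 0.572 CPM against 44.2 and 41.7 CPM (-5.40 ± 0.32 SE, adjusted p = 5.8e-04), and LAMB1, at 25.2 and 14.0 CPM against 492 and 599.6 CPM (-4.41 ± 0.31 SE, adjusted p = 8.5e-04). The primary libraries held other cell types, and their free RNA was not removed. All 11 tested acinar genes and 7 of 10 endocrine genes were also lower than in ductal-like cells. The part of free RNA in these falls was not tested.

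**Figure D5:**
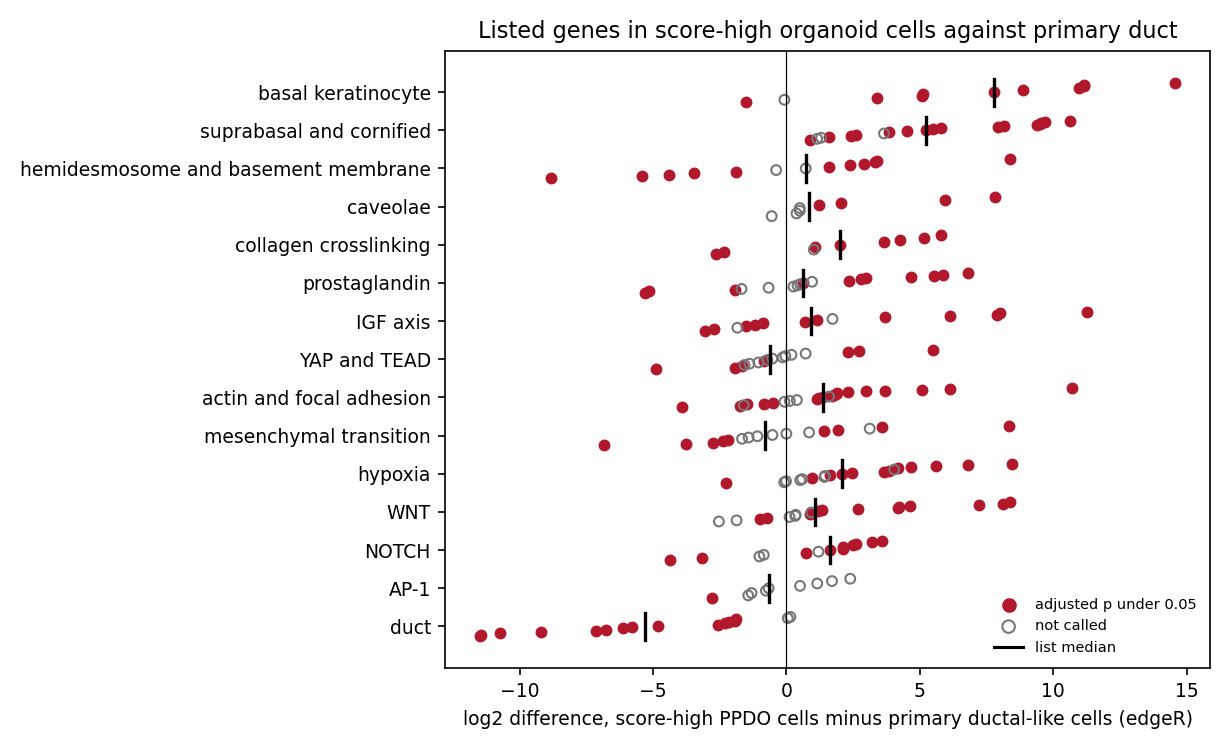
Log2 difference between score-high PPDO cells and primary ductal-like cells for the tested genes of 15 lists; filled points passed an adjusted p of 0.05 in edgeR, open points did not, and bars are list medians. Basal keratinocyte and cornified genes lie to the right, duct genes to the left, and basement membrane genes on both sides, with COL17A1 at 8.39 and COL4A1 at -5.40.

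Caveolar genes beyond CAV1 split into 2 sets. CAVIN2 (7.82 ± 0.40 SE, adjusted p = 4.1e-04) and CAVIN3 (5.96 ± 0.45 SE, adjusted p = 0.0010) rose with EHD2 and PACSIN3, 4 of 8 genes in all, and 0 fell. Over all genes 22.9% rose and 23.4% fell. CAV2 stood at 26.4 and 60.2 CPM against 33.1 and 49.5 CPM in duct and CAVIN1 at 56.9 and 67.8 CPM against 65.6 and 48.7 CPM, and neither was called (adjusted p = 0.39 and 0.20). Leaving out 1 library changed the edgeR call of CAVIN1 (log2 difference 0.86, adjusted p = 0.025 without primary pancreas 1) and of PACSIN3 (0.91, adjusted p = 0.067 without PPDO 2). Of 16 YAP and TEAD genes 3 rose and 4 fell, shares near the 22.9% and 23.4% of all genes. CCN2 stood at 24.9 and 42.5 CPM in the score-high cells and at 198 and 53.3 CPM in ductal-like cells, and was not called (-1.57 ± 0.74 SE, adjusted p = 0.14). Without primary pancreas 2 the log2 difference of CCN2 was -2.28 (edgeR adjusted p = 0.0051).

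Of 17 prostaglandin genes 8 rose and 3 fell. Over all genes 22.9% rose and 23.4% fell, which is also the background for the IGF and collagen counts below. PTGES stood at 291 and 393 CPM against 6.03 and 9.86 CPM (5.86 ± 0.32 SE, adjusted p = 4.8e-04), and PLA2G4A at 65.4 and 58.1 CPM against 2.56 and 3.89 CPM (4.68 ± 0.21 SE, adjusted p = 3.3e-04). HPGD, the enzyme that inactivates prostaglandins, fell from 3.52 and 5.85 CPM in duct to 0.0435 and 0.136 CPM (-5.29 ± 0.62 SE, adjusted p = 0.0032). Prostaglandin E2 is a component of the organoid medium, and its part in these levels was not tested. Of 14 genes of the IGF axis 7 rose and 5 fell, among them IGFBP2 at 456 and 143 CPM against 0.0931 and 0.236 CPM (11.28 ± 0.88 SE, adjusted p = 0.0011). Of 9 collagen-modifying genes 6 rose and 2 fell, with P4HA2 up by 5.81 ± 0.27 SE (adjusted p = 3.4e-04) and LOX, a lysyl oxidase related to LOXL2, down by 2.34 in log2 from 4.47 and 1.65 CPM in duct to 0.609 and 0.354 CPM (adjusted p = 0.044). The call for LOX was lost without PPDO 1, PPDO 2 or primary pancreas 1, with log2 differences of -2.70, -2.03 and -1.27 (edgeR adjusted p = 0.14, 0.21 and 0.10).

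Of 16 mesenchymal genes 4 rose and 5 fell, shares near the 22.9% and 23.4% of all genes. TGFBI, a matrix protein induced by TGF-beta, rose (3.58 ± 0.41 SE, adjusted p = 0.0030) and PLAU, the urokinase, rose (8.34 ± 0.68 SE, adjusted p = 0.0012), while VIM fell (-2.19 ± 0.39 SE, adjusted p = 0.010) and ZEB1, a transcriptional repressor of epithelial genes, fell (-2.74 ± 0.34 SE, adjusted p = 0.0038). Without PPDO 2 the log2 difference of VIM was -1.80 (edgeR adjusted p = 0.054). Free RNA from other primary cells was not removed, and its part in the falls of VIM and ZEB1 was not tested. Of 19 hypoxia genes 11 rose and 1 fell, against 22.9% and 23.4% over all genes. Of 16 duct genes 14 fell and 0 rose, but the duct list also named the ductal-like class, so that count is not independent of the choice of cells. SOX9, a transcription factor of duct and progenitor cells, stood at 2.65 and 1.06 CPM against 324 and 352 CPM. KRT7 and KRT8, keratins of simple epithelia, stood at 425 and 499 CPM against 574 and 598 CPM and at 1014 and 617 CPM against 981 and 923 CPM, and were not called (adjusted p = 0.83 and 0.67).

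The other organoid cells also stood far from primary duct in the leading genes. TP63, KRT5 and COL17A1 in the other PPDO cells stood at 535 and 585 CPM, at 5540.4 and 7780.1 CPM and at 662 and 636 CPM. IGFBP2 stood in them at 287 and 121 CPM, CAVIN2 at 136 and 99.9 CPM and CAVIN3 at 81.6 and 67.5 CPM. High levels of these genes against duct were thus not particular to the score-high cells. The other PPDO cells were not tested against duct.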

How the data were processed

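The 4 libraries were made by 10x Genomics 3' single-cell RNA sequencing of live-sorted cells. The authors aligned the reads with Cell Ranger 7.1.0 to the pig genome (the processing notes name Sscrofa11.1 and GRCh38) with an in-house annotation that splits genes into isoform and 3' extension features, and deposited whole-number UMI counts per feature and barcode. The study's correction for free RNA is not in the deposited counts. Features were summed per gene (30282 genes, 12861 without a symbol), barcodes with 1000 to 9000 features and at most 3% mitochondrial UMIs were kept in PPDO, and cells were scored as described above. Primary cells had at most 8% mitochondrial UMIs and at least 400 (primary pancreas 1) or 800 features and 3000 UMIs (primary pancreas 2), without cells over a Scrublet score of 0.25 or 0.15. They were clustered with scanpy 1.11.5 (Leiden, resolution 0.5) and named from marker lists.

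The score-high and other PPDO cells were compared without a test, with a pseudocount of 5 CPM. Score-high and primary ductal-like cells were summed per library and tested with edgeR 4.0.16 (quasi-likelihood, Benjamini-Hochberg adjustment) in R 4.3.3, with DESeq2 1.42.0 as an alternative. Each SE was back-calculated as the absolute log2 difference over the square root of the edgeR F statistic. It is an approximation, above all for genes near 0 CPM in duct. The edgeR test was also run on simulated counts with a smaller spread than these data. That run does not show how often real changes are missed here, and a gene that was not called may still differ. The cells, gene lists and tests were chosen with earlier results of these data known. The genes named are those of the lists, the 15 with the highest and the 15 with the lowest ratio, and the 5 most correlated with the score. Replicates are separate libraries, and each score-high cell is not a replicate. Binomial intervals and limits from a count of 0 cover counting error only. Of 411 list genes 380 matched a symbol. Some genes of the lists are not reported here.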

Additional observations from a re-analysis of the deposited data

Results flagged for a closer look

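The eGFP reporter sequence was counted in the deposited matrices, although no comparison above uses it. PPDO 1 held 16 eGFP UMIs in 15 barcodes and PPDO 2 held 0, while primary pancreas 1 and 2 held 164 and 10361 UMIs. The PPDO 1 count is a signal in data outside the comparisons, above the limit that a count of 0 allows, and its source was not tested.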

How the results depend on the processing

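The count of 38 higher genes within the organoids ranged from 58 to 109 when either PPDO replicate was left out, and the count of 47 lower genes from 66 to 170, since a single library then decides. The lower count was 93 with no filter on low values, 72 with cycling cells left out and 15 with cells high in the cornified list left out, the last chosen after seeing the data, as were the score without CORIN and the removal of cells with a doublet score over 0.25. The 9128 genes that differed from primary duct became 4360 to 9241 when a replicate was left out, with both lowest counts from leaving out a PPDO library, and DESeq2 called 9220. With the replicate number as a block 7958 were called, and the numbers share no animal or culture, with a correlation of deviations of -0.0051 over 19740 genes. Without primary pancreas replicate 1 and without replicate 2, log2 differences from duct took opposite signs for 9 named genes, at 1.89 and -1.65 for ATF3, 0.74 and -4.04 for CXCL2, 2.17 and -1.56 for FOS, 2.30 and -2.38 for FOSB, 2.95 and -0.90 for LIF, 2.23 and -2.24 for MAFF, 1.36 and -1.32 for PLAUR, 1.80 and -0.94 for TEAD4, and 0.76 and -0.60 for ZYX. Of the named genes, 74 of 355 lost their call without PPDO replicate 1 and 78 of 356 without PPDO replicate 2. The mean share of score-high cells high for hemidesmosome genes was 28.7%, and 32.4% unthinned, 30.2% with the highest 10% of cells and 26.6% with the highest 20%. The share for caveolae was 32.4%, and 37.2% unthinned, and that for S phase 12.5%, and 11.8% unthinned, 11.2% with the highest 10% and 12.9% without CORIN. Removal of called doublets was not run because the caller marked 0 cells. The causes of these changes were not tested.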
